A study of Homo sapiens with 22 samples.

Results

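The genes described here build and run the DNA replication fork. The set holds 54 genes chosen by name for origin licensing, the replicative helicase, the polymerases, clamp loading and nucleotide supply, arranged in 13 complexes or roles. Of these, 53 were matched by symbol to an Ensembl identifier among the 37908 genes of the count table. The remaining gene, UHRF1, could not be matched by its symbol and is not analysed here. All 53 genes passed the filter on low counts in every comparison.

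Replication is prepared in G1, when the origin recognition complex, CDC6 and CDT1 load the MCM2-7 helicase onto DNA. At the start of S phase the DBF4-dependent kinase lets CDC45 and the GINS complex join the helicase, polymerase alpha-primase lays down primers, and polymerases delta and epsilon extend them on the PCNA clamp. Many of these genes are transcribed at the G1/S boundary under E2F factors, and their RNA is more abundant in cycling cells than in resting ones.

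H1299 is a cell line from a human lung carcinoma of the non-small cell type, and all libraries came from H1299 cells that carry a BRCA2 shRNA switched on by doxycycline (DOX). BRCA2-proficient cells were grown without DOX and BRCA2-deficient cells with 2 µg/mL DOX for 3 days. Cells received control siRNA or siRNA to β-catenin (siβ-catenin, against CTNNB1), with or without the GSK3 inhibitor LY2090314 (GSK3i) at 250 nM for 24 h. Inhibition of GSK3 stabilises β-catenin. Control siRNA without GSK3i is called untreated. Each BRCA2 state thus had 4 groups, which were untreated, GSK3i, siβ-catenin and GSK3i+siβ-catenin. These 8 groups held 22 libraries, 3 in each of 6 groups, and 2 (numbered 2 and 3) in BRCA2-proficient untreated and BRCA2-proficient siβ-catenin. DOX and BRCA2 depletion always came together and cannot be told apart. The study describes its RNA-seq replicates as independent experiments, while the labels give only replicate numbers.

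Depth per library was between 18.9 and 29.3 M counts (median 23.2 M). Keratin genes KRT8 and KRT18 and vimentin (VIM) were high in all 22 libraries, with normalised counts of at least 2037. PTPRC, a leukocyte marker, was at 0 in 18 libraries and CDH5, an endothelial marker, at 0 in 14. The lung genes NKX2-1 and SFTPC were low, at 19.8 to 108 and at most 1.51. BRCA2 ranged from 514 to 1111 in the 10 BRCA2-proficient libraries and from 71.4 to 225 in the 12 BRCA2-deficient libraries. CTNNB1 ranged from 977 to 2217 in the libraries given siβ-catenin and from 5206 to 8669 in the others.

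Some BRCA2-proficient siβ-catenin libraries went against their GSK3i label. PDCD4, chosen after its values were seen, was at 1597 and 1847 in BRCA2-proficient untreated libraries and at 129 to 164 in BRCA2-proficient GSK3i libraries. In the library labelled BRCA2-proficient GSK3i+siβ-catenin replicate 2 it was at 1998, against 105 and 109 in replicates 1 and 3. In the libraries labelled BRCA2-proficient siβ-catenin it was at 291 in replicate 2 and 1056 in replicate 3, while all BRCA2-deficient libraries followed their labels. YPEL2 and ABTB1 showed the same pattern. Comparisons that hold these libraries are therefore given with and without replicate 2 of GSK3i+siβ-catenin where it enters. Those of BRCA2-proficient siβ-catenin are read as comparisons of libraries so labelled. Group means, their order, their ranges and the SD within groups use all libraries as labelled.

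The strand setting of the read counting is not given in the sources used here. Reads of 12 members cannot be told apart from those of a coding gene they overlap on the other strand, if strand was not used, and 5 overlap a coding gene on the same strand. These are MCM7 (AP4M1), ORC4, GINS1 (NINL), GINS2 (GSE1), DBF4 (SLC25A40), PRIM1 (HSD17B6 and NACA), POLA2, POLD1, RFC4 (EIF4A2), RFC5 (WSB2), FEN1 (FADS2), RPA1 (SMYD4), RPA3 (UMAD1), TYMS (ENOSF1), CHAF1A (UBXN6) and CHAF1B (MORC3).

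Upstream sequences are shown for 6 genes whose promoters differ in the letters known for E2F and NF-Y, to set beside the values that follow. They come from the RefSeq promoter table (GRCh38.p14) and were placed on GRCh37 by exact match, 5′ to 3′ on the strand of the gene, and end at the base before the annotated start. Capitals mark E2F words (TTTGGCGC, TTTGCCGC, TTTCGCGC or TTTCCCGC, on either strand) and CCAAT on either strand. In MCM6 the E2F words TTTGGCGC and TTTCGCGC overlap on opposite strands. CDT1 (chr16:88870077-88870196, plus strand), GINS2 (chr16:85722561-85722680, minus strand), PCNA (chr20:5107269-5107388, minus strand), RFC3 (chr13:34392166-34392285, plus strand) and MCM6 (chr2:136634014-136634173, minus strand) hold E2F words, and ORC4 (chr2:148779121-148779240, minus strand) holds neither motif in this stretch.
CDT1: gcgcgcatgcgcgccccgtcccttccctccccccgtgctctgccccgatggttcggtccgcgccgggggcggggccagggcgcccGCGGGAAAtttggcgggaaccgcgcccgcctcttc
GINS2: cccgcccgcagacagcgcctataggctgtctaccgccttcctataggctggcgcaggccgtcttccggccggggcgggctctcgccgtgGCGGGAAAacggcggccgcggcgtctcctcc
PCNA: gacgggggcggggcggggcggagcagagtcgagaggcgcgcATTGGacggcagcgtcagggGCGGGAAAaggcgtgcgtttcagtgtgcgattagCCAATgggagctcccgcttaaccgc
RFC3: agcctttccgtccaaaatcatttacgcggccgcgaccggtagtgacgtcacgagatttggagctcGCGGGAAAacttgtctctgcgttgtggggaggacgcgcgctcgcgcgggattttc
MCM6: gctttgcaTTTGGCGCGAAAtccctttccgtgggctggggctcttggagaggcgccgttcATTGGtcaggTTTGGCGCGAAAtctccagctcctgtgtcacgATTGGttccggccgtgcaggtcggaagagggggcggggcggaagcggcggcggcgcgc
ORC4: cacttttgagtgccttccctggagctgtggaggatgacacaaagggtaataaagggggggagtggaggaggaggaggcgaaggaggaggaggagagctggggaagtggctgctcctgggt

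In windows of 300 bases (250 before the start and 50 after it), E2F words stood in 19 of the 46 members with an entry (41.3%) and in 908 of 27305 promoters in the table (3.33%). CCAAT stood in 26 of the 46 (56.5%), against 35.7% of all promoters. The cell-cycle homology word TTTGAA stood in 2 of the 46, DBF4 and RRM1 (4.35%), against 15.4%. These counts describe letters and not binding.

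The members moved together over the 8 groups, as the heat map of relative levels shows. The lowest of the 8 group means was BRCA2-deficient siβ-catenin for 50 of 53 genes, and the highest was BRCA2-proficient GSK3i for 32. This order was not counted over all genes, so it is not read as particular to the members. In each library the median over the 53 genes of the log2 level relative to the gene's own mean was taken as a description. It ran from -1.09 to -0.64 in BRCA2-deficient siβ-catenin, from -0.44 to -0.31 in BRCA2-deficient untreated, from -0.21 to -0.13 in BRCA2-deficient GSK3i+siβ-catenin and from 0.11 to 0.37 in BRCA2-deficient GSK3i. These 4 ranges did not overlap, and such medians were not taken over other genes. In the BRCA2-proficient groups it ran from 0.45 to 0.48 under GSK3i, and was 0.28 and 0.03 in untreated replicates 2 and 3. RNA was measured in bulk, so fewer cells in S phase and less RNA per cell cannot be told apart.

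**Figure D1:**
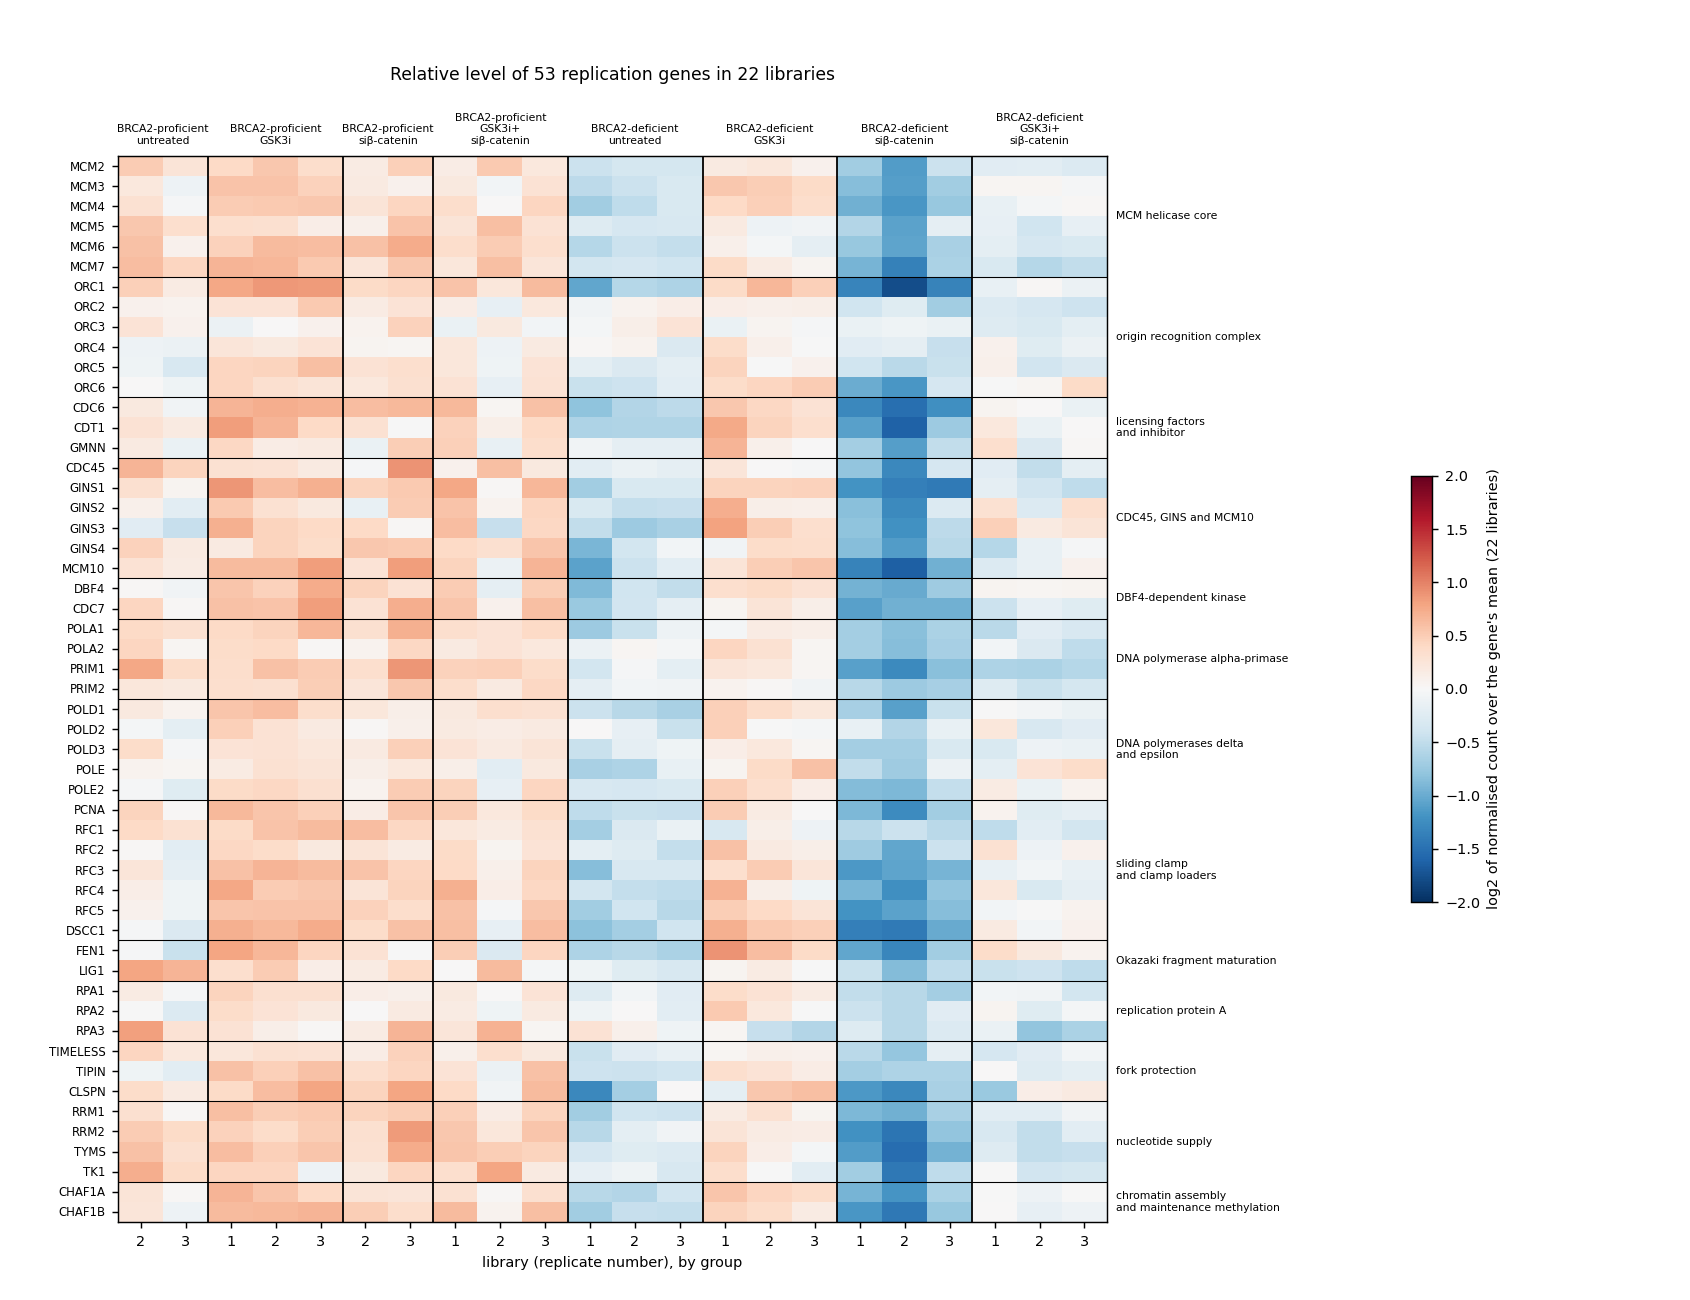
Relative level of the 53 genes (rows, by complex) in 22 libraries (columns, by group). Colour is the log2 of the normalised count over the gene's mean across the 22 libraries. The BRCA2-deficient siβ-catenin libraries are the bluest columns, and ORC3 and ORC4, with the smallest ranges of group means (0.51 and 0.53), are among the palest rows.

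**Figure D2:**
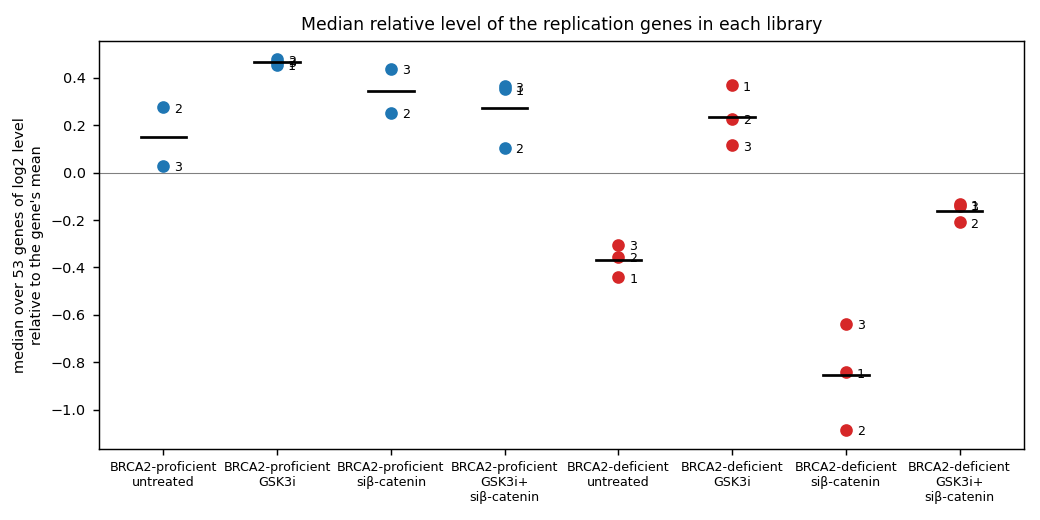
Median over the 53 genes of the log2 level relative to the gene's mean, 1 point per library with its replicate number, bars for the mean of the group. Blue marks BRCA2-proficient and red BRCA2-deficient libraries. BRCA2-deficient siβ-catenin libraries lie between -1.09 and -0.64, below all others.

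The size of movement differed by complex. The log2 range of the 8 group means was 1.38 in the median gene, from 0.51 for ORC3 to 2.31 for ORC1, against a median within-group SD of 0.19 on the log2 scale. Both extremes are subunits of the origin recognition complex, which marks replication origins. After ORC1 came GINS1 (2.06), CDC6 (2.04) and MCM10 (2.02). By complex the median range was highest for the 3 licensing factors and inhibitor (1.77) and lowest for the origin recognition complex (0.88) and polymerases delta and epsilon (0.88). Per kilobase of exon the highest mean normalised counts were those of MCM7 (3226) and PCNA (2629), and the lowest was that of POLA1 (75.2).

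GSK3i in BRCA2-deficient cells raised most of the set. Of the 53 genes 30 rose and none fell, by the DESeq2 criteria of an adjusted p below 0.05 and a log2 fold change beyond 0.5. Over all 16863 genes tested, 25.4% were called in either direction and 11.6% rose. The median log2 fold change was 0.61 over the members and 0.02 over all genes. In 42 members every GSK3i library lay above every untreated library, against 21.9% of all genes. Leaving out each library in turn gave 27 to 32 calls.

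Licensing factors had the largest median change. CDT1, which brings MCM2-7 to origins and whose promoter is shown above, was at 1678, 1697 and 1689 normalised counts in BRCA2-deficient untreated libraries 1, 2 and 3, and at 4367, 3504 and 3244 with GSK3i. The 2 groups did not overlap, and the untreated libraries differed little among themselves. CDT1 rose by 1.13 ± 0.17 (log2 fold change ± SE, as below; DESeq2 adjusted p = 4.89e-10, n = 3 and 3). CDC6, the ATPase that works with CDT1, rose by 1.04 ± 0.16. GMNN, geminin, which blocks CDT1 after S phase has begun, had a log2 fold change of 0.44 ± 0.21 and was not called (DESeq2 adjusted p = 0.107).

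Among the origin recognition subunits only ORC1 and ORC6 rose. ORC1, the subunit whose protein cycles with the cell cycle, was at 314, 435 and 425 in untreated libraries and at 845, 1028 and 900.3 with GSK3i. The lowest treated library stood well above the highest untreated library. Its log2 fold change was 1.24 ± 0.19 (DESeq2 adjusted p = 5.56e-09), and that of ORC6 was 0.79 ± 0.16. ORC2, ORC3, ORC4 and ORC5 ranged from -0.16 to 0.41 and were not called.

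The helicase and its activators rose in part. MCM3, a ring subunit of the helicase, was at 3694, 3945 and 4336 in untreated and 7717, 7534 and 6952 in GSK3i libraries, and all 3 GSK3i libraries exceeded all 3 untreated ones. It rose by 0.89 ± 0.14 (DESeq2 adjusted p = 8.14e-09), MCM4 by 0.90 ± 0.16, MCM7 by 0.57 ± 0.15 and MCM2 by 0.55 ± 0.13. MCM5 at 0.31 ± 0.15 was not called, and MCM6 at 0.45 ± 0.15 fell short of the size criterion only (DESeq2 adjusted p = 0.0104). Of CDC45, GINS and MCM10, which convert the loaded ring to a moving helicase, 5 of 6 rose, and CDC45 at 0.25 ± 0.15 was not called.

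GINS3 was at 422, 360 and 380 in untreated libraries and at 1040, 836 and 746 with GSK3i. Its groups did not overlap and it rose by 1.17 ± 0.19 (DESeq2 adjusted p = 3.28e-08). DBF4 and CDC7, the 2 subunits of the kinase that fires origins, both rose. DBF4 went from 1341, 1875 and 1761 to 3098, 3221 and 3018, without overlap, a log2 fold change of 0.91 ± 0.17 (DESeq2 adjusted p = 3.39e-06). CDC7 changed by 0.56 ± 0.19.

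None of the 4 subunits of polymerase alpha-primase, which starts each new strand, was called. POLA1, its catalytic subunit, was at 669, 813 and 1037 in untreated libraries and 1083, 1253 and 1211 with GSK3i. The groups did not overlap by a narrow margin, and the log2 fold change was 0.49 ± 0.20 (DESeq2 adjusted p = 0.0506). POLD1, the catalytic subunit of polymerase delta, was at 1242, 1135 and 1068 and at 2316, 2164 and 1962 with GSK3i. It rose by 0.90 ± 0.15 (DESeq2 adjusted p = 8.01e-08), as did POLE (0.81 ± 0.21) and POLE2 (0.64 ± 0.17) of polymerase epsilon.

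In the clamp and clamp loaders 6 of 7 genes rose. DSCC1, part of the loader that couples replication to cohesion, was at 622, 689 and 839 in untreated libraries and at 1807, 1581 and 1533 with GSK3i, roughly separate levels with no overlap. It rose by 1.19 ± 0.18 (DESeq2 adjusted p = 9.64e-10). PCNA rose by 0.71 ± 0.17 and RFC3 by 0.85 ± 0.20. RFC1, the large subunit of the loader, changed by 0.26 ± 0.20 and was not called.

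FEN1, the nuclease that trims Okazaki fragments, had the largest change of all members. It was at 1466, 1526 and 1454 in untreated libraries and at 4205, 3439 and 2923 with GSK3i, and every treated library was far above every untreated one. It rose by 1.25 ± 0.18 (DESeq2 adjusted p = 1.44e-10). LIG1, the ligase that seals the fragments, changed by 0.28 ± 0.15 and was not called.

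No subunit of replication protein A, which coats single-stranded DNA, was called. RPA1 was at 4376, 5040 and 4450 in untreated libraries and at 6727, 6390 and 5851 with GSK3i. The groups were separate, and the log2 fold change of 0.45 ± 0.14 fell short of the size criterion (DESeq2 adjusted p = 0.00811). RPA3 had a log2 fold change of -0.42 ± 0.22.

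In the fork protection complex, TIPIN was at 308, 304 and 312 in untreated and 516, 493 and 453 in GSK3i libraries. All GSK3i libraries were higher, and TIPIN rose by 0.66 ± 0.16 (DESeq2 adjusted p = 0.000436). CLSPN, claspin, rose by 0.91 ± 0.33 with a wide spread. RRM1, the large subunit of ribonucleotide reductase, which makes deoxynucleotides, was at 2014, 2488 and 2455 and at 3676, 4033 and 3386 with GSK3i. The groups did not overlap and RRM1 rose by 0.67 ± 0.16 (DESeq2 adjusted p = 0.000262). RRM2 (0.45 ± 0.17, DESeq2 adjusted p = 0.033) and TYMS (0.47 ± 0.17, DESeq2 adjusted p = 0.024) fell short of the size criterion only. TK1 (0.26 ± 0.19) was not called. CHAF1A, the large subunit of the histone chaperone that follows the fork, was at 1551, 1525 and 1752 and at 3344, 3073 and 2943 with GSK3i. With no overlap between the groups, it rose by 0.95 ± 0.14 (DESeq2 adjusted p = 2.03e-09), and CHAF1B rose by 0.87 ± 0.16.

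**Figure D3:**
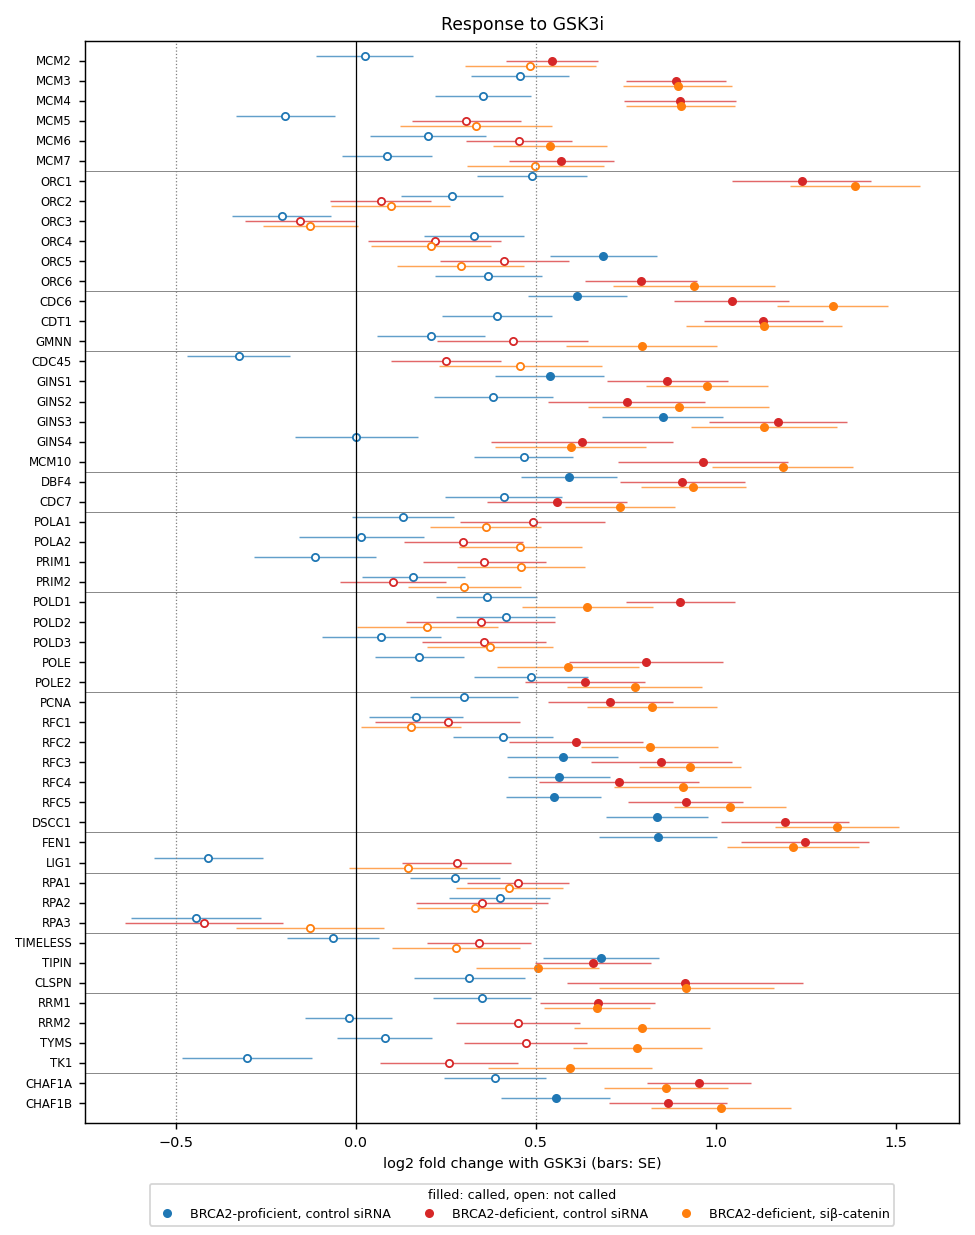
Log2 fold change with GSK3i (x axis) for each of the 53 genes (y axis, by complex) in 3 backgrounds. Points are DESeq2 estimates, bars their SE, filled points called genes and dotted lines the size criterion of 0.5. Points of BRCA2-deficient cells with control siRNA reach 1.25 at FEN1, and those of BRCA2-proficient cells reach 0.85 at GINS3.

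In BRCA2-proficient cells GSK3i raised 12 of the 53 members and lowered none, against 26.1% of 16771 genes called and 11.8% called higher. The median log2 fold change was 0.35 over the members and -0.0021 over all genes. The genes that rose were ORC5, CDC6, GINS1, GINS3, DBF4, RFC3, RFC4, RFC5, DSCC1, FEN1, TIPIN and CHAF1B. In 35 members all GSK3i libraries lay above both untreated libraries, against 31.4% of all genes, and in 4 all lay below, against 30% of all genes.

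Of the 12 genes 11 also rose in BRCA2-deficient cells, in libraries that the 2 comparisons do not share. That is 91.7% of the BRCA2-proficient calls and 36.7% of the BRCA2-deficient calls. The same overlap was not counted over all genes, so it is not read as particular to the members. FEN1 was at 2210 and 1651 in BRCA2-proficient untreated libraries and at 3885, 3545 and 3040 with GSK3i, and rose by 0.84 ± 0.16. GINS3 was at 506 and 429 and at 967, 807 and 785, and rose by 0.85 ± 0.17. MCM3 was at 6181 and 4984 and at 7930, 7899 and 7363, and its 0.46 ± 0.14 was short of the size criterion. All 3 genes were separated between groups.

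The BRCA2-proficient count turned on the 2 untreated libraries. Without replicate 2 it was 24 and without replicate 3 it was 7, of which 6 rose and 1 fell.

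The difference between the 2 responses was tested as an interaction over 11 libraries. It was 0.35 on the log2 scale in the median member and -3e-04 over all genes. The log2 fold change was the more positive in BRCA2-deficient cells for 46 of 53 members. In BRCA2-proficient cells 9 members had a log2 fold change below 0, LIG1 among them (-0.41). A difference above 0 is therefore not always a larger rise. Without a replicate block no member was called by DESeq2 or by edgeR, and 18 had an unadjusted p below 0.05 with either tool. Background calls were 6 of 17381 genes (0.0345%). The largest differences among members were those of CDT1 (0.73 ± 0.22, DESeq2 adjusted p = 0.502), ORC1 (0.73 ± 0.24) and LIG1 (0.68 ± 0.20, DESeq2 adjusted p = 0.366, the lowest among members). Over the members the median lower limit of the 95% interval was -0.11 and the median upper limit 0.75.

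With the replicate number as a block the same interaction called 9 members, against 94 of 17381 genes (0.541%) in all. In all 9 the log2 fold change was the more positive in BRCA2-deficient cells. The 9 were CDT1 (0.79, DESeq2 adjusted p = 0.000118), LIG1 (0.70), ORC1 (0.65), TK1 (0.63), CDC45 (0.58), CHAF1A (0.58), POLD1 (0.57), MCM5 (0.53) and MCM7 (0.50). Same-numbered libraries of these 4 groups deviated together with correlations of 0.09 to 0.76, of which 1, between the BRCA2-proficient untreated and GSK3i replicates 2, was below 0.1. BRCA2-deficient GSK3i replicate 2 correlated at 0.46 with BRCA2-deficient untreated replicate 3, against 0.27 with replicate 2. With BRCA2-proficient GSK3i replicate 3 it correlated at 0.40, against 0.14 with replicate 2. The other unlike pairs in these comparisons were below 0. BRCA2-proficient untreated had 2 libraries, so its like and unlike values differ only in sign. Whether the 9 members were called depended on the block.

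With siβ-catenin, GSK3i also raised most of the genes in BRCA2-deficient cells. CTNNB1 RNA was lowered but still present in the siβ-catenin libraries, so a response without β-catenin was not tested. Of 53 members 33 rose and none fell, against 20.1% of 17610 genes called and 8.56% called higher. The median log2 fold change was 0.67 over members and 0.01 over all genes. CDT1 was at 1214, 837 and 1564 with siβ-catenin and at 2972, 2342 and 2587 with GSK3i+siβ-catenin, a log2 fold change of 1.13 ± 0.22. ORC1 went from 259, 190 and 257 to 583, 662 and 597, rising by 1.39 ± 0.18. In both genes the groups were far apart.

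This comparison and that with control siRNA share no libraries, and 28 members rose in both (93.3% of the calls with control siRNA and 84.8% of those here). This overlap, too, was not counted over all genes. All 4 nucleotide supply genes rose here, RRM1 by 0.67 ± 0.15, RRM2 by 0.79 ± 0.19, TYMS by 0.78 ± 0.18 and TK1 by 0.59 ± 0.23. Polymerase alpha-primase and replication protein A again had no called member. Without 1 library in turn the count was 27 to 38. The difference between the responses with siβ-catenin and control siRNA was 0.02 in the median member. The 95% interval of this difference had a median lower limit of -0.40 and a median upper limit of 0.50 over the members. In 13 of 53 members the interval lay within the size criterion of 0.5 in both directions. These limits do not show that the response was unchanged. No member was called by DESeq2 or edgeR and none had an unadjusted p below 0.05 with either, against 0.486% of 18117 genes called by DESeq2.

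In BRCA2-proficient cells with siβ-catenin, the comparison of libraries labelled with and without GSK3i called no member, by DESeq2 or edgeR, and none had an unadjusted p below 0.05. It called 9 of 17010 genes in all (0.0529%). Without the library labelled GSK3i+siβ-catenin replicate 2 the count of members remained 0. The labels of these libraries are doubtful, as PDCD4 showed, and these counts are not read as a response.

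Depletion of β-catenin under GSK3i lowered a few members in BRCA2-deficient cells. There 10 fell and none rose, against 5.52% of 17025 genes called and 2.57% called lower. All 53 log2 fold changes were below 0, with a median of -0.40, against -0.02 over all genes. In 35 members every siβ-catenin library lay below every control siRNA library, against 11.3% of all genes. GINS1 was at 1237, 1238 and 1252 with GSK3i and 803, 697 and 640 with GSK3i+siβ-catenin. Its groups were distant, and it fell by 0.81 on the log2 scale (SE 0.15, DESeq2 adjusted p = 5.14e-06).

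PRIM1, the catalytic primase subunit, was at 695, 681 and 605 with GSK3i and 384, 379 and 396 with GSK3i+siβ-catenin. It fell by 0.78 on the log2 scale (SE 0.14, DESeq2 adjusted p = 9.66e-06). The other 8 were MCM7, ORC1, MCM10, POLA2, DSCC1, LIG1, RRM2 and TYMS. GINS1 and PRIM1 alone were called under every alternative tried. The count was 3 without GSK3i replicate 2, 5 without GSK3i+siβ-catenin replicate 2, and 2 with edgeR.

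Without GSK3i the direction was alike. In BRCA2-deficient cells siβ-catenin lowered 8 members and raised none, against 2.03% of 17324 genes called and 0.82% called lower. The median was -0.42 over members and 0.01 over all genes. The 8 were GINS1, ORC1, CDC6, POLA2, PRIM1, PRIM2, RRM2 and TYMS. Of these, 6 also fell under GSK3i, in a comparison of other libraries (6 of these 8 calls and 6 of those 10). The overlap over all genes was not counted. TYMS, which makes thymidylate, was at 2579, 2752 and 2693 in untreated libraries and at 1487, 1129 and 1689 with siβ-catenin. The groups were far apart, and TYMS fell by 0.89 on the log2 scale (SE 0.18, DESeq2 adjusted p = 0.000205).

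Same-numbered libraries of these 2 groups deviated together at correlations of 0.18 to 0.53. The unlike pair of siβ-catenin replicate 2 and untreated replicate 3 reached 0.24. A fit with the replicate block called 17. With edgeR none was called (33 had an unadjusted p below 0.05). Without siβ-catenin replicate 1 or untreated replicate 2 the count was 2, without siβ-catenin replicate 2 it was 4, without untreated replicate 1 it was 15 and without siβ-catenin replicate 3 it was 18. Calls over all genes in these fits are not given here.

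In BRCA2-proficient cells siβ-catenin under GSK3i called no member. The median was -0.16, against 0.0032 over all genes, and 6 members had an unadjusted p below 0.05, 5 with edgeR, which also called none. Over all 16393 genes 5.1% were called. Without the library labelled GSK3i+siβ-catenin replicate 2 the count remained 0, with 4 members at an unadjusted p below 0.05 and a median of -0.07.

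The interaction of siβ-catenin with BRCA2 state under GSK3i called no member by DESeq2 or edgeR, with 7 at an unadjusted p below 0.05 in either. The median difference was -0.21, against -0.01 over all genes, of which 0.0057% were called. PRIM1 had the lowest adjusted p, with a difference of -0.73 ± 0.17 (DESeq2 adjusted p = 0.0894). Without the library labelled BRCA2-proficient GSK3i+siβ-catenin replicate 2, GINS1, PRIM1 and RRM2 were called, at -0.79, -0.71 and -0.65. In the comparison of libraries labelled BRCA2-proficient siβ-catenin with untreated, no member was called by DESeq2 or edgeR, 9 had an unadjusted p below 0.05 with either, and 2.97% of 17654 genes were called. That count was 2 without siβ-catenin replicate 2 and 4 without replicate 3.

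**Figure D4:**
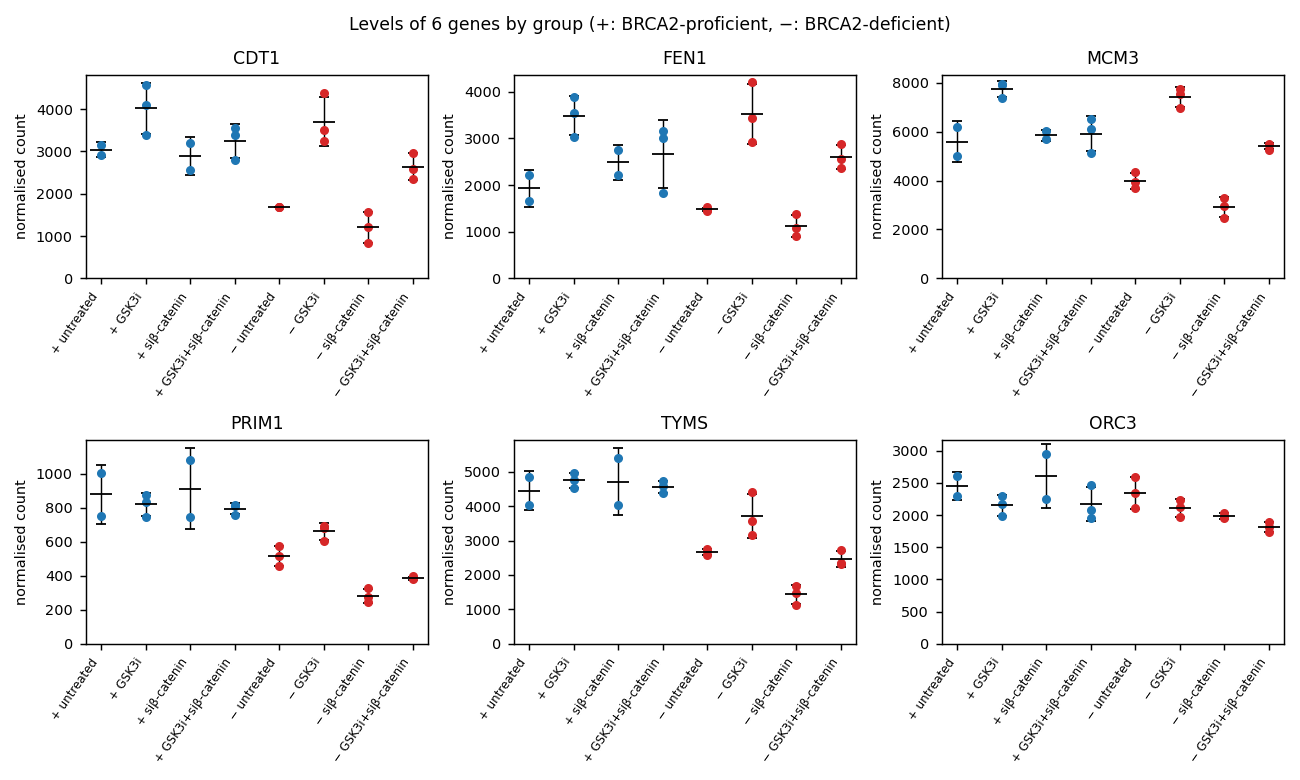
Normalised counts (y axis from 0) of CDT1, FEN1, MCM3, PRIM1, TYMS and ORC3 in the 8 groups, 1 point per library, with mean and SD as bars. Plus marks BRCA2-proficient (blue) and minus BRCA2-deficient (red) groups. In BRCA2-deficient cells CDT1 lies at 1678 to 1697 untreated and at 3244 to 4367 with GSK3i, while ORC3 spans only 1740 to 2956 over all groups.

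BRCA2-deficient untreated cells had less RNA of many members than BRCA2-proficient untreated cells. Of 53 genes 27 fell and none rose, against 6.91% of 17157 genes called and 4.14% called lower. The median log2 fold change was -0.61 over members and 0.0028 over all genes, and 44 members had no overlap between groups in that direction, against 19.6% of all genes. The 4 nucleotide supply genes all fell, as did 5 of 6 MCM genes and both CHAF1 subunits, while 1 of 6 origin recognition genes (ORC1) did.

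MCM7 was at 22820 and 20140 in BRCA2-proficient untreated libraries and at 11620, 11860 and 11380 in BRCA2-deficient untreated libraries. It fell by 0.91 on the log2 scale (SE 0.15, DESeq2 adjusted p = 1.31e-07). LIG1 was at 2019 and 1867 and at 1107, 993 and 939, and fell by 0.97 (SE 0.16, DESeq2 adjusted p = 5.04e-07). ORC1 was at 904 and 727 and at 314, 435 and 425, and fell by 1.08 (SE 0.23). In all 3 genes every BRCA2-deficient library lay below both BRCA2-proficient ones.

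The number called depended on single libraries and on the tool. Without BRCA2-proficient untreated replicate 2 no member was called by DESeq2, 19 had an unadjusted p below 0.05 and the median was -0.50, so the direction stayed while the count did not. Without BRCA2-proficient untreated replicate 3 it was 10, without BRCA2-deficient untreated replicate 2 it was 11, and with edgeR on all libraries it was 11.

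Under GSK3i 3 of 53 members, MCM6, RFC1 and CDC7, were lower in BRCA2-deficient than in BRCA2-proficient cells and none was higher, against 6.81% of 16336 genes called and 3.05% called lower, and the median was -0.24, against -0.0038 over all genes. MCM6 was at 3375, 3787 and 3749 in BRCA2-proficient GSK3i libraries and at 2626, 2392 and 2165 in BRCA2-deficient ones. With no overlap it fell by 0.61 on the log2 scale (SE 0.13, DESeq2 adjusted p = 0.000163). The count was 1 with edgeR and 1 without BRCA2-proficient GSK3i replicate 2 or 3. The test of whether the BRCA2 difference changed with GSK3i is the interaction given above, which called no member without the replicate block and 9 with it.

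With GSK3i+siβ-catenin, 20 members fell in BRCA2-deficient relative to BRCA2-proficient cells and none rose, against 7.74% of 17046 genes called and 4.36% called lower. The median was -0.44, against -0.01 over all genes. All 4 polymerase alpha-primase genes fell, as did all 4 nucleotide supply genes. PRIM1 was at 810, 814 and 755 in BRCA2-proficient and 384, 379 and 396 in BRCA2-deficient libraries, the groups far from overlapping, and fell by 1.04 (SE 0.17, DESeq2 adjusted p = 6.48e-08).

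Of the 20 genes 15 had also fallen in untreated cells, in libraries that the comparisons do not share (75.0% of these calls and 55.6% of those). The overlap over all genes was not counted here either. The library labelled BRCA2-proficient GSK3i+siβ-catenin replicate 2 enters here, and without it 26 members fell. Without BRCA2-proficient replicate 1 the count was 12 and without replicate 3 it was 11. Without BRCA2-deficient replicate 2 it was 10 and without replicate 3 it was 13. edgeR called 8. BRCA2 states were not compared with siβ-catenin alone.

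**Figure D5:**
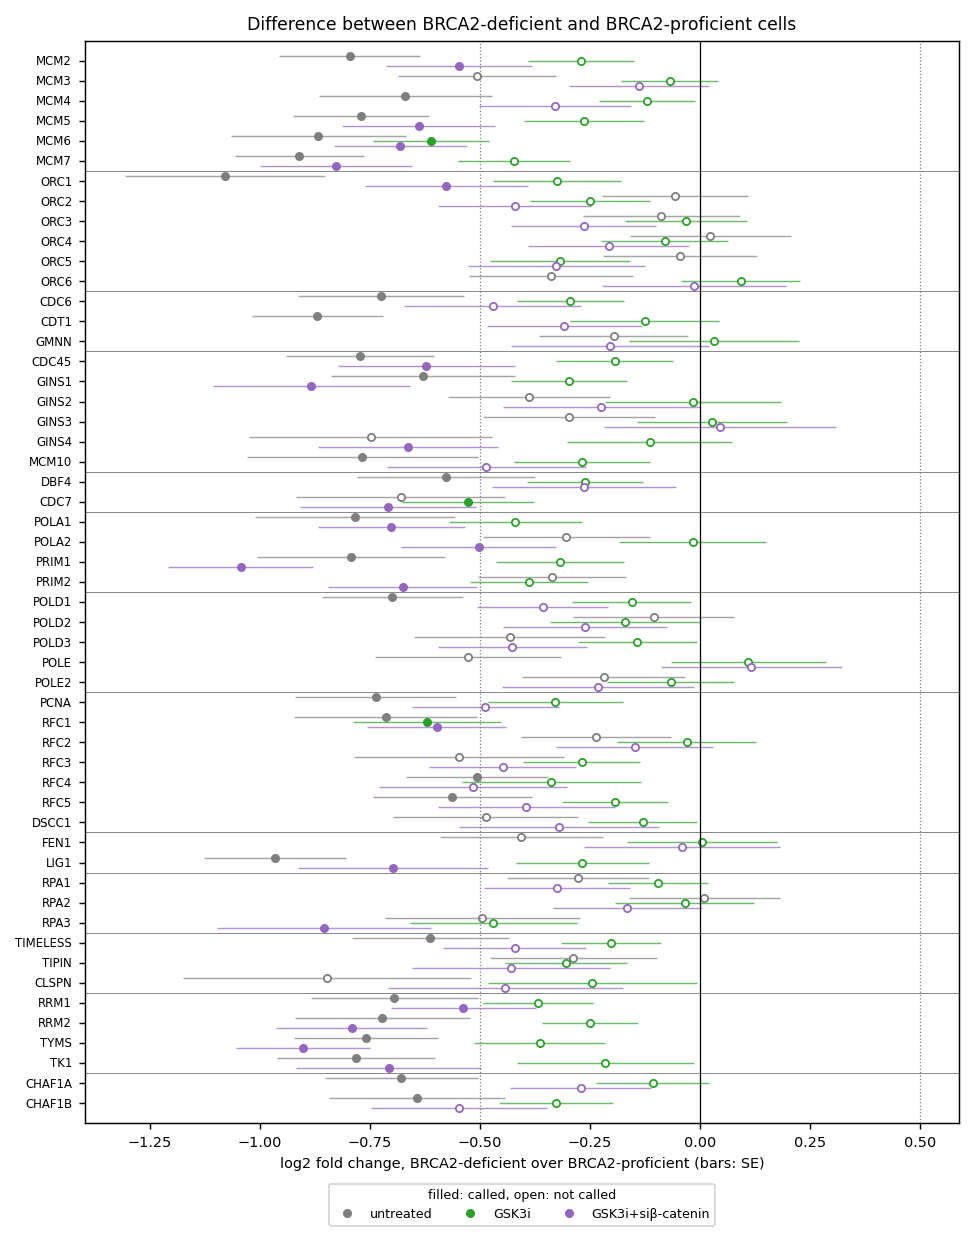
Log2 fold change of BRCA2-deficient over BRCA2-proficient cells (x axis) for each of the 53 genes (y axis, by complex), untreated (grey), with GSK3i (green) and with GSK3i+siβ-catenin (purple). Points are DESeq2 estimates, bars their SE, filled points called genes. Green points are filled for 3 genes only, MCM6, RFC1 and CDC7.

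Of the 53 members 7 were called in none of the 11 comparisons or 3 interactions, ORC2, ORC3, ORC4, POLD2, POLD3, RPA1 and RPA2. The share of all genes called in none was not counted, so the 7 are not read as few or many. ORC3 was at 2104, 2340 and 2597 in BRCA2-deficient untreated libraries, and at 1967, 2241 and 2120 with GSK3i. Its groups overlapped, with a log2 fold change of -0.16 ± 0.15. ORC4, whose upstream stretch is shown above, was at 858, 889 and 698 and at 1097, 910 and 843, a log2 fold change of 0.22 ± 0.19 with overlapping groups.

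Calls fell on members with and without E2F words. In BRCA2-deficient cells GSK3i raised 13 of the 19 members with such a word in the 300-base window and 14 of the 27 without one, with median log2 fold changes of 0.71 and 0.56, where 11.6% of all genes rose. In BRCA2-proficient cells it raised 4 of the 19 and 7 of the 27 (medians 0.30 and 0.37, 11.8% of all genes). With BRCA2 depletion in untreated cells 10 of the 19 and 15 of the 27 fell (medians -0.73 and -0.58, 4.14% of all genes). In this window ORC3 holds a word and was not called, and ORC1 holds none and was among the largest changes. Only exact words in this window were searched, so a gene without a word is not read as lacking an E2F site. A role of E2F factors was not tested.

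A further list of 53 replication genes outside the set, 52 of them tested, was counted in the same way. With GSK3i 22 rose and 2 fell in BRCA2-deficient cells (median 0.46), where 25.4% of all genes were called and 11.6% rose. In BRCA2-proficient cells 9 rose and 2 fell (median 0.23), where 26.1% of all genes were called and 11.8% rose. In BRCA2-deficient cells the largest rises were those of CDCA5, sororin, which holds sister chromatids together (1.25 ± 0.16), MCM8 (1.14 ± 0.26) and the phosphatase CDC25A (1.10 ± 0.18). POLD4, the small subunit of polymerase delta, fell by 1.40 on the log2 scale (SE 0.26), and TK2, the mitochondrial thymidine kinase, by 0.75 (SE 0.17). In BRCA2-proficient cells POLE3, MCIDAS and CDC25A rose most (0.88, 0.79 and 0.73), and POLD4 and TK2 fell by 1.26 and 0.56. With BRCA2 depletion in untreated cells 15 of the 52 fell and none rose, against 4.14% of all genes called lower.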

How the data were processed

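RNA was sequenced from poly(A)-enriched, strand-specific libraries. The authors aligned reads to GRCh37 (hg19) with HISAT2 2.0.4, processed them with SAMtools 1.4 and Picard 1.9.2 (per the submitters' processing notes) and deposited raw counts per Ensembl gene from featureCounts 1.5.0. The annotation release is not given in the sources used here.

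Each comparison was fitted on all genes with DESeq2 1.42.0 in R 4.3.3 (Wald test, median-of-ratios size factors, two-sided, Benjamini-Hochberg adjustment, no shrinkage), on its own groups, and genes were tested unless more than 3 libraries had fewer than 10 counts. For interactions, 3 or more libraries had to reach 10 counts. A call needed an adjusted p below 0.05 and a log2 fold change beyond 0.5. Levels are counts divided by size factors over all 22 libraries. Alternatives were edgeR 4.0.16, TMM factors, no filter, the replicate block, 1 model over all groups and leaving out each library (96 fits). The fits were tested on simulated data.

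Same-numbered libraries deviated together (every correlation above 0.1, 3 pairs) in every comparison of 3 against 3 libraries, at 0.14 to 0.87, and the labels do not say what a number shares. Unlike-numbered pairs in these comparisons were mostly below 0 but reached 0.50. That pair was GSK3i+siβ-catenin replicate 2 and GSK3i replicate 3 in BRCA2-deficient cells. Replicates were not duplicates (chi-square per gene 10.8 to 64.4).

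The set, the further list and the rule for named genes were chosen with earlier results of these data known. By that rule, values in every library were given in each complex for the member of lowest adjusted p with GSK3i in BRCA2-deficient cells; others were added to illustrate a comparison after their values were seen.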

Additional observations from a re-analysis of the deposited data

How the results depend on the processing

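No value changed direction in any called result. edgeR called 2 members fallen with siβ-catenin under GSK3i in BRCA2-deficient cells, 11 with BRCA2 depletion untreated, 1 under GSK3i, 8 under GSK3i+siβ-catenin, and 0 with siβ-catenin alone in BRCA2-deficient cells. The replicate block gave 17 for siβ-catenin alone in BRCA2-deficient cells, where 1 model over all groups gave 13. For the BRCA2 interaction with GSK3i the block gave 9 higher, and otherwise the block moved no count by over 1.5 times. Leaving out 1 library gave 7 to 24 calls for GSK3i in BRCA2-proficient cells, 27 to 32 in BRCA2-deficient cells and 27 to 38 there after siβ-catenin. It gave 3 to 11 for siβ-catenin under GSK3i and 2 to 18 without it in BRCA2-deficient cells, and 0 to 4 for siβ-catenin in BRCA2-proficient cells. For BRCA2 depletion it gave 0 to 33 untreated, 1 to 4 under GSK3i and 10 to 26 under GSK3i+siβ-catenin, and 0 to 3 for the interaction of siβ-catenin with BRCA2 state. The cause was not tested, beyond fewer libraries in the fits that leave one out. With 1 library left in an arm it is assumed to vary like the other group. TMM factors and the absence of a filter kept every count within 1.5 times. All these counts are of members, and calls over all genes in the same fits are not given in this section. A changed count is therefore not read as particular to the members. The lowest mean normalised count among the members was 427 (TIPIN), and the effect of depth on the calls was not tested.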
